A study of Bos taurus with 60 samples.

Results

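The endometrial transcriptome of 25 of the 60 beef heifers in the series was compared between 14 heifers fed n-3 PUFA and 11 control heifers. All 25 were on the high plane of nutrition after insemination and had a high level of MX2 (ENSBTAG00000008471). They were chosen as high-plane heifers with log2(CPM + 1) of MX2 above 5.5, where CPM are counts scaled to the same total in every library, and are called interferon-high below. The rule kept 11 of 14 CON_High and 14 of 17 PUFA_High heifers, and left out 3 of each group. MX2 is an interferon-inducible antiviral GTPase, and its identifier was paired with its name in the rule itself.

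In ruminants the elongating conceptus secretes interferon tau around the time of maternal recognition of pregnancy. This interferon acts on the endometrium, induces a broad set of interferon-stimulated genes, and restrains the prostaglandin pulses that would end the life of the corpus luteum. Long-chain n-3 fatty acids are incorporated into membrane phospholipids and compete with n-6 fatty acids as substrates of prostaglandin synthesis. A high MX2 level marks interferon exposure, and was not used here as a record of pregnancy, since the pregnancy status of single heifers was not analysed.

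The heifers were nulliparous crossbred beef animals with synchronised cycles. The n-3 PUFA groups received a supplement based on fish oil for the 30 days that preceded insemination, and the CON groups received a control lipid, palmitic acid, so that both arms were fed added fat. The lipid supplement was also part of the restricted ration after insemination. High-plane heifers stayed on their diet after insemination, whereas low-plane heifers were fed below maintenance, and endometrium was taken after 16 days from the uterine horn on the side of the corpus luteum. Whole endometrium was sequenced, so a change in the share of a cell type and a change in RNA per cell cannot be told apart. Groups follow the title of each library, which put 17 n-3 PUFA heifers on the high and 15 on the low plane, whereas the deposited description of the design gives 15 on the high and 17 on the low plane. The study's own text gives group sizes as the titles do, whereas its tallies of pregnant and open n-3 PUFA heifers add up as in the description. In pregnant heifers that text reports an n-3 PUFA effect on many genes on the low plane and on hardly any on the high plane. When the planes of these heifers were exchanged, the main comparison gave 14 differentially expressed genes (DEG), 10 higher and 4 lower with n-3 PUFA, and the low plane gave fewer. The result below therefore rests on the titles.

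MX2 chose the heifers, and its levels are a description. In the 11 control heifers the lowest, median and highest log2(CPM + 1) were 8.21, 10.15 and 11.17 (mean 9.93 ± 1.06, SD). In the 14 n-3 PUFA heifers they were 8.32, 9.80 and 10.64 (mean 9.77 ± 0.618, SD). The ranges overlapped, with 3 control heifers (replicates 1, 6 and 10) above every n-3 PUFA heifer, and the difference of the means was -0.16 on this scale. Of the 6 high-plane heifers left out, the highest values were 3.48 in a control heifer and 4.36 in an n-3 PUFA heifer. No high-plane heifer lay between 4.36 and 8.21, and thresholds of 5.0 and 6.0 kept the same heifers. The level also varied within each diet, from 308 to 2324 TMM-scaled CPM in control heifers and from 310 to 1736 in n-3 PUFA heifers.

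**Figure D1:**
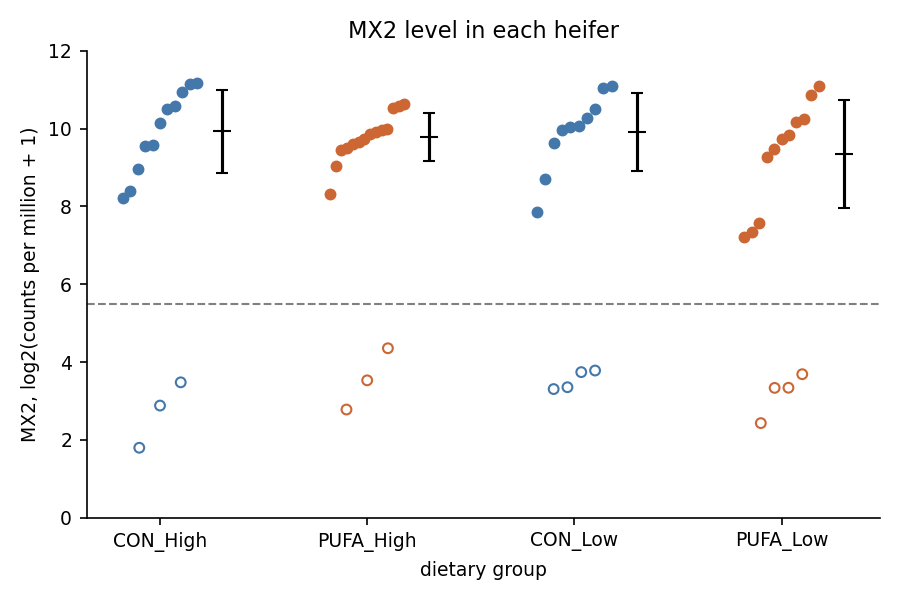
MX2 level of each of the 60 heifers as log2(CPM + 1), by dietary group, with filled points for interferon-high and open points for interferon-low heifers. The dashed line is the threshold of 5.5, the bars give mean ± SD of the interferon-high heifers, and no high-plane heifer lies between 4.36 and 8.21.

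None of 3 library measures differed between the diets past the threshold. Total counts were 10972431, 11684428 and 13306629 (lowest, median, highest) in control heifers, and 9635801, 11560785.5 and 12358063 in n-3 PUFA heifers. The n-3 PUFA mean was lower by 539810 counts, which did not pass (p = 0.0806 in a two-sided permutation test, and 0.242 adjusted over the 3 library measures). The 100 most abundant genes took 21.9% ± 3.01 (SD, n = 11) of the counts in control and 21.0% ± 1.99 (SD, n = 14) in n-3 PUFA heifers (permutation test, p = 0.389, adjusted p = 0.389). Genes with at least 1 count numbered 16724.7 and 16665.2 on average (permutation test, p = 0.362, adjusted p = 0.389).

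A few heifers stood apart from the others. The first principal component of the tested genes held 22.7% of the variance, and CON_High replicate 11 (-68.93) and PUFA_High replicate 4 (-55.17) lay far from all other heifers on it, 1 from each diet. The next farthest heifer was PUFA_High replicate 14 at 31.29, and the ranges of the diets overlapped on this component and on the second, which held 14.7%. On the second, CON_High replicate 7 (-45.99) and PUFA_High replicate 5 (-45.76) lay apart, again 1 from each diet. Without these 2 there were 0 DEG in the main comparison (lowest adjusted p-value 0.7177 in edgeR, 934 genes under an unadjusted p of 0.05), the difference between the planes described below held 1067 DEG, and the directions of the gene lists below were as with all heifers. The 100 most abundant genes took 28.2% of the counts in CON_High replicate 11 and 27.2% in CON_High replicate 8, against 24.7% in PUFA_High replicate 4, the highest n-3 PUFA heifer. Results without the heifers apart on the first component or in this share are given below for part of the comparisons. They cover DEG of the main comparison and the plane difference, the abundant and interferon-linked genes, the spread and the low-plane lists.

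The main comparison asked whether n-3 PUFA altered the endometrium of heifers under interferon exposure and constant feeding. No gene was differentially expressed between n-3 PUFA and control heifers: 0 of 13983 genes tested (0%) passed both limits, more than 1.5-fold and an adjusted p-value under 0.10. The lowest adjusted p-value in edgeR's quasi-likelihood test was 0.8947 (Benjamini-Hochberg), so 0 genes passed at any fold change either. Before adjustment, 644 genes (4.61%) had p-values under 0.05, 382 higher and 262 lower with n-3 PUFA. DESeq2 also called 0 DEG, and put 706 genes under an unadjusted p of 0.05. Leaving out each of the 25 heifers in turn gave 0 DEG every time, and between 436 and 1123 genes reached an unadjusted p-value under 0.05. There were likewise 0 DEG without CON_High replicate 11 and PUFA_High replicate 4 (smallest adjusted p = 0.1866, edgeR), and 0 without CON_High replicates 8 and 11 (0.6536). When the 6 high-plane heifers with low MX2 were added, the count remained 0 over 14020 genes, with 1320 at an unadjusted p-value under 0.05.

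The estimates set an approximate limit on the size of change that could have been missed. The median absolute log2 fold change was 0.10 and the median standard error 0.139. The 95% confidence interval lay within 1.5-fold in either direction for 10651 genes (76.2%), and within 2-fold for 13442 (96.1%). It reached 2-fold for the other 541. Precision followed abundance: the share of genes with an interval within 1.5-fold was 51.6% in the tertile of lowest abundance, 87.3% in the middle and 89.6% in the highest. The intervals are for single genes and are not adjusted for the number of genes. Standard errors were calculated back from the log2 fold change and the F statistic of edgeR's test, so they and the intervals are approximate.

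Point estimates beyond 1.5-fold were found for 144 genes (1.03%) and beyond 2-fold for 25, of which 10 were higher and 15 lower with n-3 PUFA. The 25 were of low abundance, with a median of 5.65 CPM against 23.6 over all genes tested. Their log2 fold changes ran from -2.41 to 3.12, and 16 had an unadjusted p-value under 0.05. Of the 15 lower genes 6 were among the interferon-linked genes described below, and of the 10 higher genes 0, against 117 of the 13983 genes tested. The ranges of the diets overlapped for all 25, as they did for each of the 13983 genes tested (0% without overlap). Among the 100 most abundant genes, all tested, the median log2 fold change was -0.13, with 75 lower (against 52% of all genes) and 25 higher, values from -0.44 to 0.26, and 1 gene at an unadjusted p-value under 0.05. That direction turned without CON_High replicates 8 and 11, when 39 were lower and the median was 0.02 (47.1% of all genes lower), and it was 66 lower and -0.06 without CON_High replicate 11 and PUFA_High replicate 4.

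**Figure D2:**
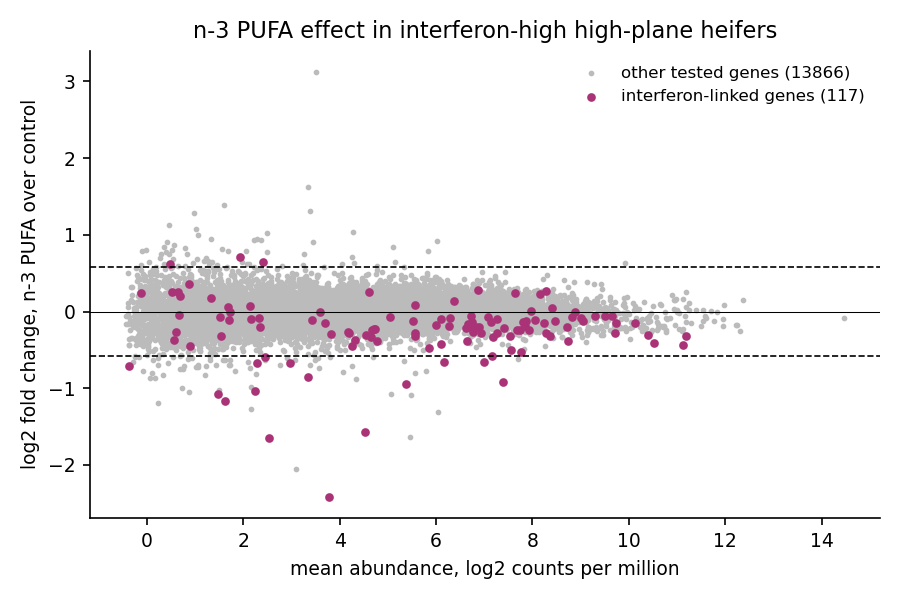
log2 fold change of n-3 PUFA over control heifers against mean abundance (log2 CPM) for the 13983 genes tested in interferon-high high-plane heifers, with the 117 tested interferon-linked genes in purple. Dashed lines mark 1.5-fold, 144 genes lie beyond them, and no gene passed the adjusted test.

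Counts are deposited by Ensembl identifier without symbols, so 2 genes in each direction, those of smallest p-value, are given by identifier and their roles are not stated. None is called changed, since the adjusted p-value was 0.8947 for each in edgeR. Levels are TMM-scaled CPM.

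ENSBTAG00000034991 was at 3.65, 5.61 and 8.21 (lowest, median, highest) in control heifers. In n-3 PUFA heifers it was at 4.69, 7.62 and 9.61. The ranges overlapped, but 13 of 14 n-3 PUFA heifers lay above the control median, and the log2 fold change was 0.47 (SE 0.127, unadjusted p = 0.0009131).

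ENSBTAG00000016838 was at 27.2, 37.7 and 43.9 in control heifers. In n-3 PUFA heifers it was at 37.3, 45.9 and 47.4. All 11 control heifers lay under the n-3 PUFA median, and the log2 fold change was 0.24 (SE 0.0666, unadjusted p = 0.001038).

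ENSBTAG00000026429 had the smallest p-value of all genes. It was at 16.8, 25.1 and 36.7 in control heifers. In n-3 PUFA heifers it was at 13.9, 18.3 and 26.1. In 13 of 14 n-3 PUFA heifers it lay under the control median, and the log2 fold change was -0.47 (SE 0.112, unadjusted p = 0.0002387). With MX2 as a covariate the log2 fold change was -0.43. The high-plane heifers with low MX2, 3 in each diet, had means of 15.4 in control and 17.8 in n-3 PUFA heifers. Their medians, 16.2 and 15.2, had the opposite order. In each dietary group the mean was higher in interferon-high than in interferon-low heifers. These means were 26.1 and 15.4 in CON_High, and 18.8 and 17.8 in PUFA_High heifers.

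ENSBTAG00000027058 was at 1.48, 2.63 and 4.06 in control heifers. In n-3 PUFA heifers it was at 1.06, 1.59 and 2.59. All 14 n-3 PUFA heifers lay under the control median, and the log2 fold change was -0.72 (SE 0.182, unadjusted p = 0.0004649). The high-plane heifers with low MX2 ran the other way, with 0.29, 0.93 and 1.98 in 3 control and 2.40, 7.49 and 8.99 in 3 n-3 PUFA heifers, and with these added the log2 fold change was 0.06.

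Library codes carry 1 of 6 prefixes of unstated meaning. The difference between the diets had the same sign within 6 of 6 prefixes for all 4 genes. The genes were picked for their small p-values, which favours such a pattern.

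**Figure D3:**
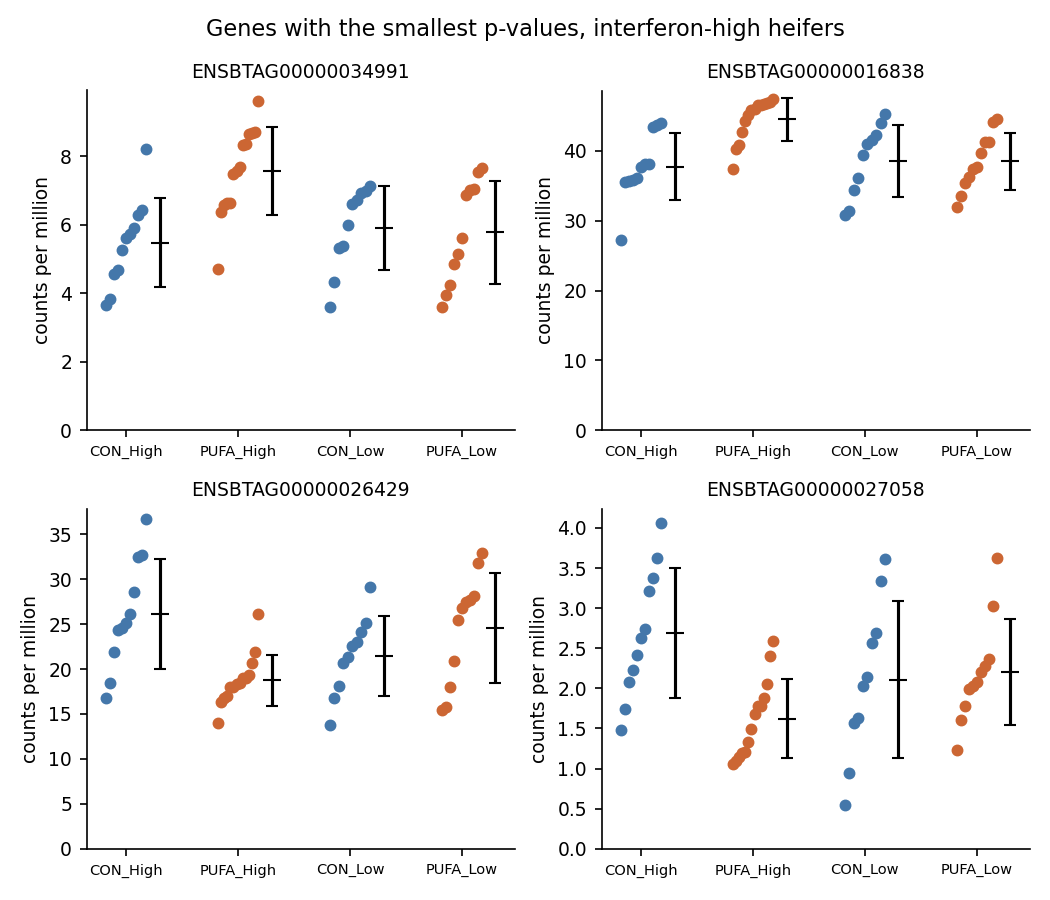
CPM of the 4 genes with the smallest p-values, for each interferon-high heifer in the 4 dietary groups, with mean ± SD beside the points. On the high plane the diets overlap for all 4 genes, and on the low plane the means of the diets lie closer together.

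Genes that follow the interferon class could be described without symbols. Among low-plane heifers alone, 131 genes other than MX2 were at least 4-fold higher in interferon-high than in interferon-low heifers (adjusted p-value under 0.05, 14549 genes tested). These interferon-linked genes were chosen after the data had been seen but without any high-plane heifer. In high-plane heifers 129 of the 131 were higher in the interferon-high class, against 48.3% of the 14020 genes tested there, with a median difference of 2.26 on the log2 scale. The interferon-high class lay wholly above the other for 71 of them, against 0.785% of the genes tested.

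Of the 131 genes, 117 passed the expression filter in the 25 heifers, and 0 were DEG between the diets. Most leaned to lower levels with n-3 PUFA: 97 had a negative and 20 a positive log2 fold change (82.9% negative, against 52% of all genes tested). All were chosen to follow the interferon class, so they do not count as independent genes. Their median log2 fold change was -0.20, against -0.01 over all genes, with values from -2.41 to 0.70. Before adjustment 6 (5.13%) had p-values under 0.05, all lower with n-3 PUFA, a share close to the 4.61% of all genes. Leaving out single heifers moved the median between -0.29 (without CON_High replicate 8) and -0.09 (without CON_High replicate 6), and it was -0.30 without CON_High replicates 8 and 11 and -0.28 without CON_High replicate 11 and PUFA_High replicate 4. Over 20 alternatives the median was negative each time, from -0.33 to -0.02. It was smallest in size with MX2 as a covariate, the value that chose the heifers and the list. On the low plane, fitted alone, 84 of 115 genes of the list were lower with n-3 PUFA (73%, against 52% of all genes). Their median was -0.23, and 3 were DEG (2.61%, against 4.4% of all genes tested). Low-plane heifers chose the list, and mean MX2 of the interferon-high ones also differed by -0.57 with n-3 PUFA. The low-plane lean is therefore no independent support for that on the high plane. The precision for the 117 genes on the high plane was low, with a median standard error of 0.305 and a 95% interval within 2-fold for 72 (61.5%).

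The mean log2(CPM + 1) of the 131 genes was 4.06, 4.98 and 5.83 (lowest, median, highest) in control heifers, with a mean of 4.97 ± 0.632 (SD, n = 11). It was 3.95, 4.86 and 5.49 in n-3 PUFA heifers, with a mean of 4.86 ± 0.411 (SD, n = 14). The n-3 PUFA range lay almost wholly inside the control range, and the difference of -0.11 was smaller than the SD of either group. The difference was negative in 3 of 6 prefixes and positive in the other 3. The high-plane heifers with low MX2 lay well below, from 2.61 to 2.78 in control and from 2.56 to 2.70 in n-3 PUFA heifers.

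The interferon-linked genes spread more between control heifers. The median SD of log2 CPM of the 117 interferon-linked genes was 0.841 in control and 0.636 in n-3 PUFA heifers, and it was larger in control heifers for 101 (86.3%). Over all genes tested the medians were 0.34 and 0.29, with the control SD larger for 66.2%. Without CON_High replicates 8 and 11 the order over all genes turned, with medians of 0.269 and 0.29 and the control SD larger for 41%, whereas that of the interferon-linked genes was 0.803 against 0.636, larger in control heifers for 101. Without CON_High replicate 11 and PUFA_High replicate 4 the control SD was larger for 59.1% of all genes and for 104 of the interferon-linked genes. On the low plane the order was the opposite, with 0.773 in control and 1.03 in n-3 PUFA heifers for 115 tested interferon-linked genes, and over all genes tested there the medians were 0.283 and 0.294, with the control SD larger for 44.8%. The interferon-linked genes were chosen to follow the interferon class, so they do not count as independent genes. MX2 alone had the same order of SD, with 1.06 in control and 0.618 in n-3 PUFA heifers on the high plane. On the low plane its SD was 0.999 and 1.38 in interferon-high heifers. These spreads are descriptions, and no test of them was made.

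**Figure D4:**
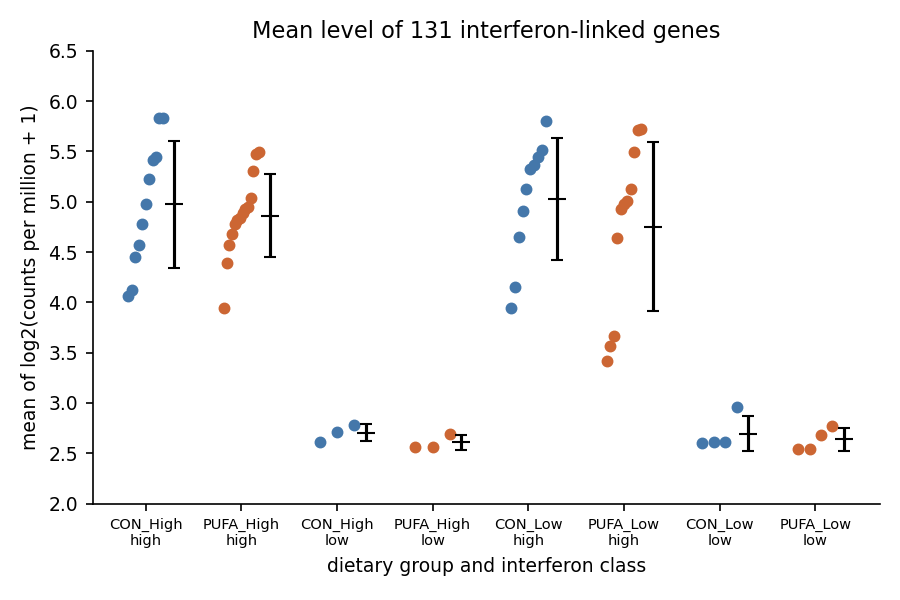
Mean of log2(CPM + 1) over the 131 interferon-linked genes for each heifer, by dietary group and interferon class (high or low on the second line of each label), with mean ± SD beside the points; the axis starts at 2. Control and n-3 PUFA heifers of the interferon-high class overlap on both planes, and the list was chosen from the low-plane heifers shown at the right.

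The n-3 PUFA effect was then set against that in the 21 interferon-high heifers on the low plane, 11 with n-3 PUFA and 10 control. In 1 model of all 60 heifers, the low plane gave 616 DEG of 14946 genes (4.12%), 301 higher (2.01%) and 315 lower (2.11%) with n-3 PUFA, whereas the high plane gave 0, with 567 at an unadjusted p-value under 0.05 (edgeR's quasi-likelihood test). The difference between the planes itself was past the threshold for 905 genes (6.06%), 364 (2.44%) with a more positive and 541 (3.62%) with a more negative effect of n-3 PUFA on the high plane. At the study's own rate, an adjusted p-value under 0.001, both counts were 0. With a replicate block they were 213 and 0, and with the planes exchanged 3 and 36. The count for the difference rested on few libraries. It was 289 without CON_High replicate 11 and 1 without CON_High replicates 8 and 11, whereas it was 752 without CON_High replicate 11 and PUFA_High replicate 4. The share of counts on the 100 most abundant genes moved with the low-plane contrast, at 26.0% ± 3.09 (SD, n = 11) with n-3 PUFA and 21.2% ± 2.13 (SD, n = 10) in control heifers. With this share as a covariate there were 2 DEG on the low plane and 0 for the difference (463 at an unadjusted p-value under 0.05). The share is made from the tested counts and moves with the diet on the low plane, so this fit does not separate share and diet. The source of the share was not tested.

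The 301 genes that were higher with n-3 PUFA on the low plane had a median log2 fold change of 0.74 there and -0.18 on the high plane, where 252 (83.7%) were lower with n-3 PUFA, against 53.3% of all genes tested. None of the 301 passed the adjusted test on the high plane, and 8 (2.66%) had an unadjusted p-value under 0.05, all lower with n-3 PUFA, against 3.79% of all genes. The lean was not stable: without CON_High replicates 8 and 11 the high-plane median was 0.04 and 102 (33.9%) were lower. It was -0.06 (69.1% lower) without CON_High replicate 11 and PUFA_High replicate 4, and -0.03 (58.8%) with the share of abundant genes as a covariate. The 315 genes lower on the low plane had medians of -0.72 there and 0.03 on the high plane, where 139 (44.1%) were lower with n-3 PUFA and 10 (3.17%) had an unadjusted p-value under 0.05, 4 of them lower. That direction turned as well, with a median of -0.09 and 61.6% lower without CON_High replicates 8 and 11, and the values were 0.01 and 49.2% without CON_High replicate 11 and PUFA_High replicate 4. The contrasts share no heifers, but the expression filter, scaling and dispersions of this model used all 60, and 276 of the 301 and 262 of the 315 genes were also DEG when the low-plane heifers were fitted alone.

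**Figure D5:**
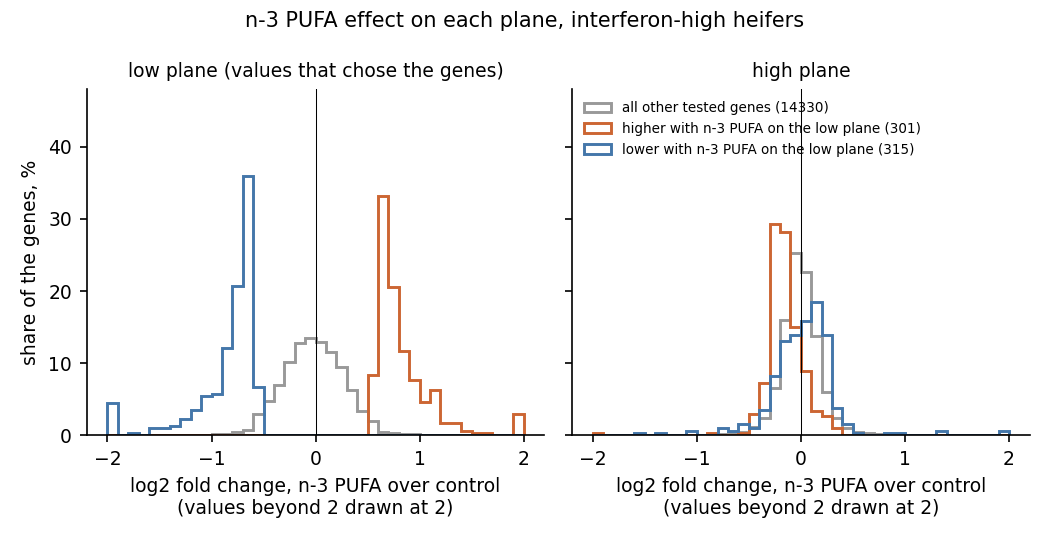
Share of genes (%) by log2 fold change of n-3 PUFA over control on the low plane (left, the values that chose the 2 coloured sets) and on the high plane (right), for 301 genes higher and 315 genes lower on the low plane and for all other genes tested; values beyond 2 are drawn at 2. On the high plane the higher set leans below 0 (median -0.18, 83.7% negative), a lean that was absent without CON_High replicates 8 and 11, and the lower set has a median of 0.03.

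Among the 4 named genes, the difference between the planes passed the adjusted test in the model of all heifers only for ENSBTAG00000026429. Its log2 fold change was 0.19 on the low plane, and the high-plane effect was lower by a difference of -0.67 (SE 0.18, adjusted p = 0.03, edgeR's quasi-likelihood test). The call was lost with the share of abundant genes as a covariate (-0.56, adjusted p = 0.9998, edgeR), with a replicate block (-0.53, 0.365), without CON_High replicates 8 and 11 (-0.70, 0.1187), and with the planes exchanged (0.10, 0.8449), and adjusted p-values ranged from 0.01192 to 0.9998 over the 17 alternatives. This gene was named for its small p-value on the high plane, so the difference is not independent of that choice. The differences of the other 3 genes had adjusted p-values of 0.14, 0.172 and 0.144. That of ENSBTAG00000027058 passed both limits when the interferon-high heifers were fitted alone (-0.79, adjusted p = 0.09717, edgeR) and without CON_Low replicate 6 (-0.91, 0.0869).

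The n-3 PUFA effect of interferon-high heifers was finally set against that of the 6 high-plane heifers with low MX2, 3 in each diet. The difference was past the threshold for 319 of 14946 genes (2.13%), with 65 more positive (0.435%) and 254 more negative (1.7%) in interferon-high heifers (edgeR's quasi-likelihood test). This rested on 3 heifers a diet in the interferon-low class. Leaving out single heifers gave between 73 (without PUFA_High replicate 11) and 911 (without PUFA_High replicate 15), and the count was 139 without CON_High replicate 9 and 109 without PUFA_High replicate 2. A fit of the high-plane heifers alone gave 150, a replicate block 102, an adjusted p-value under 0.001 left 28, and the exchange of planes 0. Within the interferon-low class itself, n-3 PUFA gave 641 DEG (4.29%) in the model of all heifers, 431 higher (2.88%) and 210 lower (1.41%). When these 6 heifers were fitted alone there were 0 DEG of 13940 genes, with a lowest adjusted p-value of 0.6961 in edgeR and 969 genes under an unadjusted p of 0.05. The count of 641 ranged from 183 to 1460 without single heifers, at the lowest without PUFA_High replicate 11 and at the highest without PUFA_High replicate 15. It was 204 without PUFA_High replicate 2, 234 without CON_High replicate 9, 980 without CON_High replicate 5 and 1218 without CON_High replicate 14.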

How the data were processed

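RNA was extracted from endometrium of 60 heifers and sequenced as single-end mRNA libraries. The authors processed reads with CASAVA 1.4, aligned them to UMD3.1 with TopHat2 2.0.9 and counted reads per Ensembl gene with HTSeq 0.5.4p5, and deposited raw counts of 24616 genes, 3947 of them without a count in any heifer. The counting mode and use of strand are not given in the sources used here.

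Members and lists were chosen with earlier results of these data known. Counts were filtered by filterByExpr, scaled by TMM and tested with the quasi-likelihood test of edgeR 4.0.16 (R 4.3.3), on the 25 heifers alone or on all 60 with 1 coefficient per supplement, plane and interferon class. The Benjamini-Hochberg adjustment ran over all genes tested. Genes more than 1.5-fold apart at an adjusted p-value under 0.10 were DEG, whereas the study states a rate of 0.1%. DESeq2 1.42.0 was an alternative. Library measures were compared by permutation tests with 100000 resamples. The scripts were tested on simulated counts. None of 300 pairs of the 25 libraries was a repeat deposit (smallest chi-square per gene 18.1).

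The gene table used (ARS-UCD2.0, 37063 genes) pairs 0 genes with an Ensembl identifier. Planned lists, including cell type markers, were therefore not run, the endometrial label was not checked against markers, and named genes are, in each direction, the 2 of smallest p-value. Replicate numbers follow the order of the library codes within a group, and nothing in the labels says that they pair heifers.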

Additional observations from a re-analysis of the deposited data

Results flagged for a closer look

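The difference between the planes in the n-3 PUFA effect, tested directly in interferon-high heifers, was past the threshold for 905 genes. The difference between the interferon classes on the high plane was past it for 319 genes. For ENSBTAG00000026429 the difference between the planes was -0.672 on the log2 scale. Outside the 25 heifers, 1 interferon-low CON_Low heifer had a mean log2(CPM + 1) of 2.9559 over the 131 interferon-linked genes, far from the other 3 of its class by Dixon's test. Chance flags about 1 in 20 such groups.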

How the results depend on the processing

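The count of 0 DEG in the main comparison held under 15 of 16 alternatives that could have changed it, and in 25 of 25 fits that left out 1 heifer. Some of the 16 added heifers to the 25, left out pairs or exchanged the planes. Another 5 could not change it, since MX2 limits of 5.0 and 6.0 kept the same heifers and no gene had an adjusted p-value low enough for another limit to matter. The exception was the exchange of planes (14), which put the n-3 PUFA heifers titled low plane in place of the others. Alternatives added after seeing the data were leaving out the pairs of heifers named above, single heifers in the model of all heifers, other list limits, spread and abundant genes without the named pairs, all fits of the interferon-low class, and the alternatives for the plane difference of named genes. For the low plane (616) the count was 0 at an adjusted p-value under 0.001, 2636 without a fold limit, 2 with the share of abundant genes as a covariate, 213 with a replicate block, and 3 with planes exchanged. For the difference between the planes (905) it was 480 at an adjusted p-value under 0.05, 0 under 0.001, 1815 without a fold limit, 0 with the share as a covariate, 0 with a replicate block (1754 at an unadjusted p-value under 0.05), 36 with planes exchanged, and 1 without CON_High replicates 8 and 11. For the difference between interferon classes (319) it was 28 under 0.001, 102 with a replicate block, 0 with planes exchanged (931 at an unadjusted p-value under 0.05), and 150 in high-plane heifers alone. For the interferon-low class (641) it was 407 under 0.05, 73 under 0.001, 31 with planes exchanged, 0 when fitted alone, and 183 to 1460 without single heifers. With planes exchanged the differences between the planes reversed to -0.2843 for ENSBTAG00000034991, -0.1769 for ENSBTAG00000016838, 0.1045 for ENSBTAG00000026429 and 0.0904 for ENSBTAG00000027058. The log2 fold change of ENSBTAG00000027058 reversed to 0.0629 with all high-plane heifers, and with planes exchanged it was -0.28, against 0.08 for ENSBTAG00000034991, 0.04 for ENSBTAG00000016838 and -0.08 for ENSBTAG00000026429. The cause of these changes was not tested. Leaving out single heifers gave 436 to 891 DEG on the low plane, 289 to 1332 for the planes and 73 to 911 for the classes. Replicate numbers did not pair heifers: the mean correlation of 9 same-numbered pairs was -0.0932 (-0.3481 to 0.1014), against 0.0075 for other pairs. The numbers follow the order of the library codes, and 6 of the 9 pairs share a prefix. The block gave 0 DEG in the main comparison. The median of the interferon-linked genes (-0.20) was -0.12 for a list at 2-fold and -0.30 at 8-fold, -0.33 with log2 total count as a covariate, -0.07 with the replicate block, and -0.02 with MX2 as a covariate, which is the value that chose the heifers and the list. Among tertiles of abundance, intervals were widest in the lowest.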
